A study of Mus musculus with 9 samples.

Results

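The retinoblastoma (RB) pocket proteins, E2F transcription factors and a pair of genes directly linked to them were followed in mouse lung organoids, small cultures that keep some of the make-up of the tissue they come from. The 10 genes were chosen by symbol: the pocket protein genes Rb1, Rbl1 and Rbl2, the E2F genes E2f1, E2f2, E2f3, E2f7 and E2f8, the cyclin gene Ccne1 and the inhibitor gene Cdkn2a. All 10 had a row with an adjusted p-value in both comparison tables, out of 57010 genes in each table. RNA sequencing covered 9 libraries in 3 groups of 3. Normal is the group from normal lung and SCLC the group from small cell lung cancer. GSK is taken as SCLC organoids treated with an agent that the labels call GSK. Whether its libraries came from organoids alone is not stated. The mouse strain, age and sex, the alleles and Cre driver behind the tumour, the number of clones, and the identity, dose and time of GSK are not stated in the labels or headers. Each deposited table compares 3 libraries with 3, as the authors computed it. No value of a single library was used, so overlap between groups could not be read and replicate spread enters only through the authors' standard errors. Nothing in the labels says whether the 3 libraries of a group came from separate cultures or animals, so the p-values measure the spread between libraries, which may be technical.

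The pocket proteins restrain entry into S phase. In their unphosphorylated form they bind E2F factors and hold E2F target genes silent, and cyclin-dependent kinases release the E2Fs by phosphorylating the pocket proteins. E2f1, E2f2 and E2f3 are the activating E2Fs, E2f7 and E2f8 are atypical E2Fs that repress the same targets later in S phase, Ccne1 encodes cyclin E1, which drives CDK2, and Cdkn2a encodes both the CDK4 and CDK6 inhibitor INK4A and the tumour suppressor ARF. Loss of RB1 is a hallmark of small cell lung cancer, and several E2F genes, Ccne1 and Rbl1 are known E2F targets themselves.

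The promoters were searched for the E2F site in its forms TTTCCCGC, TTTCGCGC, TTTGCCGC and TTTGGCGC, on both strands. RefSeq windows (build GRCm38.p6, from 250 bases before to 50 bases after a transcript start) were at hand for 9 of the 10 genes, as 12 windows, with none for Rb1. A site was present in 5 windows, 1 each of Rbl1, E2f2, E2f3, E2f7 and Cdkn2a, and in 2.26% of all 32851 windows of 300 bases. No window of E2f1, E2f8, Ccne1 or Rbl2 held one of these forms. The stretches around these 5 sites are printed 5′ to 3′ on the strand of the gene, with the site in capitals. GCGGGAAA is TTTCCCGC read on the other strand.
Rbl1, chr2:157204535-157204614, minus strand: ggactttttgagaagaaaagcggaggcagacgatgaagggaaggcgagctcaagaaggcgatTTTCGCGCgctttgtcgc
E2f2, chr4:136172294-136172323, plus strand, after the start: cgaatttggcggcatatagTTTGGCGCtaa
E2f3, chr13:29986064-29986143, minus strand: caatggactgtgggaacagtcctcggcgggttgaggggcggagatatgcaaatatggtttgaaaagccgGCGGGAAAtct
E2f7, chr10:110745205-110745284, plus strand: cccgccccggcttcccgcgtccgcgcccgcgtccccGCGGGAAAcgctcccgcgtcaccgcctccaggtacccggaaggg
Cdkn2a, chr4:89294675-89294754, minus strand: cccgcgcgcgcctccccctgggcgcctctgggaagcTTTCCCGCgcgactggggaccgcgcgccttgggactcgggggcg

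The site lay at positions -18 to -11 from the start in Rbl1 and -11 to -4 in E2f3. It lay at -99 to -92 in Cdkn2a, in the window of the upstream of its 2 listed starts, and at -198 to -191 in E2f7. In E2f2 it lay at positions 40 to 47 after the start. The cell cycle homology region TTTGAA, at which the DREAM complex of pocket proteins, E2F4 and MuvB represses genes, was present in windows of E2f2, E2f3, E2f8 and Rbl2 and in 17.9% of all windows, both strands searched. A match is a run of letters, not a measured binding site. Other forms of the E2F site were not searched. The part of these sites in the changes below was not tested.

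The summed normalized counts implied per library were 44.7 M for Normal and 42.0 M for SCLC in the first table, and 45.3 M for the control and 31.9 M for GSK in the second. The control matched the SCLC group of the first table: the log2 ratio of their implied means over 13634 genes had median 0.11 and SD 0.0084, and the control is called SCLC from here on. Group levels below, in normalized counts, were derived from each gene's deposited mean and fold change. SCLC has a level in each table because the tables were scaled separately. The groups fitted their labels by defining markers, which were chosen with earlier results of these data known. All 5 neuroendocrine markers were higher in SCLC than in Normal, and 12 of 13 lung epithelial markers were lower. Syp, a synaptic vesicle gene, had an implied 14.1 in Normal and 5056 in SCLC. The Normal organoids also held markers of other cells. The summed level of 9 fibroblast, immune and endothelial markers was 6365 in Normal and 64.6 in SCLC. By list it was 5392 and 14.6 for fibroblast, 879 and 0.40 for immune and 94.3 and 49.7 for endothelial markers. Of the 8 tested, 6 were lower in SCLC, while Pecam1 (61.0 and 36.2) and Kdr (6.0 and 12.7) did not pass. Cd3e had no adjusted p (0.19 and 0.16). The part of these cells in the differences below was not tested. In bulk RNA, fewer cells of a type and less RNA per cell cannot be told apart.

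How the tumour organoids differ from normal ones is the question of the first comparison. At an adjusted p under 0.05 in the authors' deposited table all 10 genes changed: 8 were higher in SCLC and 2, Rb1 and Rbl2, were lower. Among all 24719 tested genes 50.4% were called, 25.3% higher and 25.1% lower. The median log2 fold change of the 10 genes was 2.49, against 0.10 over all tested genes and 0.18 over genes averaging 100 or more. Cdkn2a showed the greatest rise of the 10 and Rb1 the greatest fall.

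Rb1 (ENSMUSG00000022105), the founding tumour suppressor of the family, had an implied level of 621 in Normal and 153 in SCLC. The log2 fold change was -2.02 ± 0.24 (SE; the authors' deposited table gives adjusted p = 5.75e-16), a 4.06-fold lower level, and 14.3% of the 12887 tested genes with a mean of at least 100 fell further. Rb1 transcript was present in SCLC at a level well above 0, and gene counts do not show whether any exon was missing. Rbl2 (ENSMUSG00000031666), which encodes p130, the pocket protein of resting cells, went from 1813 to 903, with a log2 fold change of -1.01 ± 0.24 (the authors' deposited table gives adjusted p = 9.69e-05). Rbl1 (ENSMUSG00000027641), which encodes p107, the pocket protein of cycling cells, moved the other way, from 867 to 2374. Its log2 fold change was 1.45 ± 0.30 (the authors' deposited table gives adjusted p = 5.34e-06).

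Other genes share exon sequence with Rb1, Rbl2, E2f7 and E2f8 on the opposite strand in GENCODE M21. No label or header says whether the counting used strand. Lpar6, a lysophosphatidic acid receptor gene, shares 408 exon bases with Rb1, and Rcbtb2 shares 488. Lpar6 had a mean of 82.8 over 6 libraries and a log2 fold change of -3.08 (adjusted p = 5.66e-08), the same direction as Rb1, in the authors' deposited table. Rcbtb2 had 0.28 (adjusted p = 0.477, from the authors' deposited table). Aktip shares 693 exon bases with Rbl2 and had -0.70 (the authors' deposited table gives adjusted p = 0.00205). Gm45464 shares 892 exon bases with Rbl2, at a mean of 4.46 over 6 libraries. Gm2788 shares 610 with E2f8, at a mean of 10.8 and a log2 fold change of 2.69 (the authors' deposited table gives adjusted p = 0.0684). 1700020G17Rik shares 86 with E2f7, at a mean of 0.071. These neighbours were looked up for their position, and their part in the counts of the genes they overlap was not tested.

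**Figure D1:**
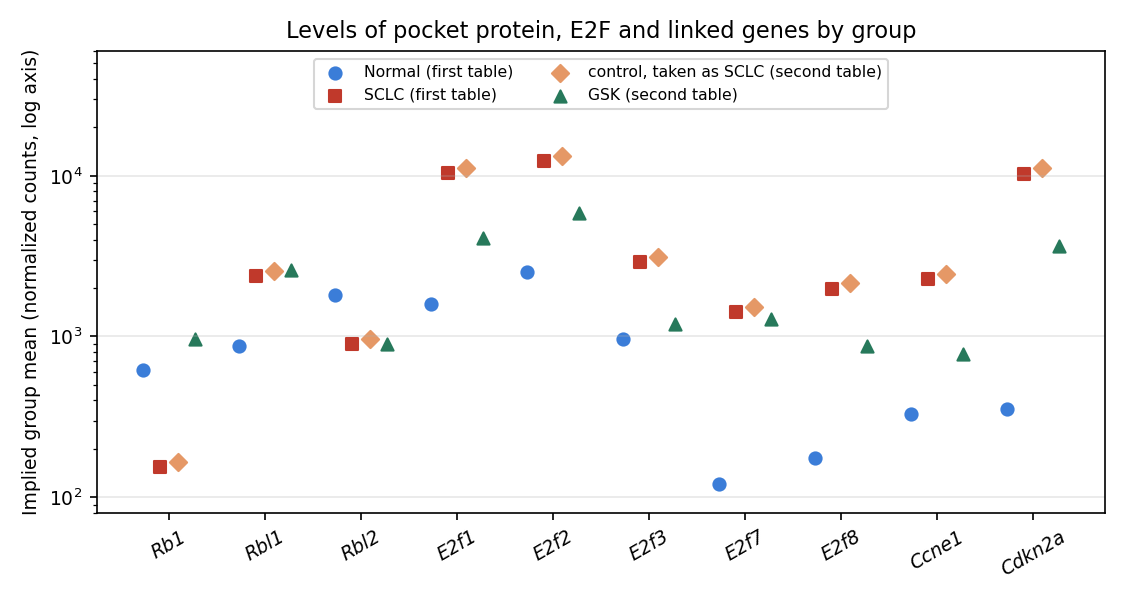
Implied group means (normalized counts, log axis) of the 10 genes in Normal and SCLC (first table) and in the control, taken as SCLC, and GSK (second table); each point is 1 group mean of 3 libraries and has no error bar, because no library values were used. Rb1 is the gene with its lowest points in SCLC (153 and 165), with Normal at 621 and GSK at 960.

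The 3 activating E2F genes all rose. E2f1 (ENSMUSG00000027490) had an implied level of 1602 in Normal and 10435 in SCLC, a log2 fold change of 2.703 ± 0.26 (the authors' deposited table gives adjusted p = 2.09e-24). E2f2 (ENSMUSG00000018983) went from 2537 to 12304, with 2.28 ± 0.29 (the authors' deposited table gives adjusted p = 1.98e-14). E2f3 (ENSMUSG00000016477) went from 971 to 2917, with 1.59 ± 0.22 (the authors' deposited table gives adjusted p = 1.46e-12). E2f3 had the smallest fold of the 3, and E2f1 the largest.

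The atypical, repressing E2Fs rose from low levels, E2f7 11.7-fold and E2f8 11.4-fold. E2f7 (ENSMUSG00000020185) had an implied level of 121 in Normal and 1413 in SCLC, and a log2 fold change of 3.54 ± 0.54 (the authors' deposited table gives adjusted p = 2.92e-10), with the widest error of the 10 genes. E2f8 (ENSMUSG00000046179) went from 174 to 1984, with 3.51 ± 0.40 (the authors' deposited table gives adjusted p = 2.41e-17). Ccne1 (ENSMUSG00000002068), the cyclin that drives CDK2 at the start of S phase, went from 330 to 2266, with 2.78 ± 0.29 (the authors' deposited table gives adjusted p = 5.66e-21).

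Cdkn2a (ENSMUSG00000044303) had an implied level of 355 in Normal and 10309 in SCLC, 29.1-fold higher. The log2 fold change was 4.86 ± 0.24 (the authors' deposited table gives adjusted p = 2.51e-85), and 4.76% of tested genes with a mean of at least 100 rose further. Counts per gene do not separate the INK4A and ARF transcripts, which have their own first exons. Its neighbour Cdkn2b, which encodes the related inhibitor INK4B, moved the other way, from 5501 to 188, with a log2 fold change of -4.87 ± 0.27 (the authors' deposited table gives adjusted p = 1.06e-68).

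In the wider pathway, the cyclin D genes and their kinases moved in both directions, and all listed G1/S genes were higher. The lists were chosen with earlier results of these data known. Among all tested genes 25.3% were called higher and 25.1% lower. Of 20 G1/S genes bound by E2F, 20 were higher and 0 lower in SCLC (median log2 fold change 2.86), with Gins1, of the replicative helicase, at 3.96 ± 0.40, Cdt1, an origin licensing factor, at 3.96 ± 0.28, and Ung, a uracil glycosylase, at 3.42 ± 0.41, in the authors' deposited table. Of 15 kinases, cyclins and inhibitors, 7 were higher and 6 lower. Those lower included the D cyclins Ccnd2 (-7.04 ± 0.32) and Ccnd1 (-5.13 ± 0.61, implied level 27178 in Normal and 774 in SCLC) and their kinase Cdk6 (-4.76 ± 0.80), in the authors' deposited table. Cdk4, the other cyclin D kinase, was higher (1.78 ± 0.27), as were the S phase cyclins Ccna2 (3.87 ± 0.40) and Ccne2 (3.65 ± 0.46) and the INK4 inhibitor Cdkn2c (3.41 ± 0.43), in the authors' deposited table. Cdkn1a, which encodes the CDK inhibitor p21, was lower (-1.60 ± 0.39) in the authors' deposited table.

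Of the 8 genes of the MuvB core and its partners, 6 were higher and 0 lower in SCLC. Mybl2, which encodes B-MYB, rose by 4.69 ± 0.37, Foxm1, its partner at mitotic genes, by 3.84 ± 0.45 and Mybl1 by 2.89 ± 0.32 on the log2 scale in the authors' deposited table. Among the 5 remaining E2F and DP subunits, the dimer partner Tfdp1 was higher (2.66 ± 0.22) and Tfdp2 lower (-1.38 ± 0.31), and E2f4, which works with p107 and p130, had 0.08 ± 0.18 (the authors' deposited table gives adjusted p = 0.725). Of 8 genes for the turnover of cyclin E, E2F and p27, 4 were higher and 0 lower, with Ccnf at 2.75 ± 0.33, Skp2 at 2.66 ± 0.24 and its cofactor Cks1b at 2.29 ± 0.34 in the authors' deposited table. Of 8 chromatin partners of pocket proteins, 4 were higher and 2 lower, beside 25.3% and 25.1% of all tested genes. Those higher included the histone methyltransferase Suv39h1 (2.73 ± 0.27), Rbbp7 (1.64 ± 0.28) and the deacetylase Hdac2 (1.31 ± 0.43), in the authors' deposited table. Arid4a (-1.49 ± 0.20) and Kdm5a (-0.78 ± 0.21) were lower there.

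The GSK libraries were compared with SCLC in the second table. The labels do not say whether they came from organoids alone, and they held much RNA of other cell types, described next, so changes in the tumour cells and in the mix of cells cannot be told apart. Rb1 rose, 6 of the 10 genes fell (E2f1, E2f2, E2f3, E2f8, Ccne1 and Cdkn2a), and Rbl1, Rbl2 and E2f7 did not pass the test, in the authors' deposited table. Among all 28376 tested genes 37.1% were called, 21.6% higher and 15.5% lower. The median log2 fold change of the 10 genes was -1.24, against 0.24 over all tested genes and -0.25 over genes averaging 100 or more. This comparison shares its SCLC libraries with the first, so opposite signs in the pair are not independent.

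The GSK libraries carried RNA of other cell types that SCLC almost lacked. All 9 fibroblast, immune and endothelial markers were higher in the authors' deposited table, and their summed implied level went from 69.3 in SCLC to 34915 in GSK. The leukocyte gene Ptprc had an implied 0.088 in SCLC and 12562 in GSK, the endothelial gene Cdh5 0.93 and 5311, and the collagen gene Col1a1 3.02 and 3799. Ptprc, Adgre1, Cd3e and Cdh5 were under a mean of 1 in SCLC. Of 13 lung epithelial markers 12 were higher, with a summed level of 842 in SCLC and 11393 in GSK. Of 5 neuroendocrine markers 3 fell, among them Insm1 (-1.95 ± 0.27) and Syp (-1.33 ± 0.33), while Ncam1 (-0.32 ± 0.30) and Chga (0.06 ± 0.33) did not pass, in the authors' deposited table. The part of these cells in the changes of the 10 genes was not tested.

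**Figure D2:**
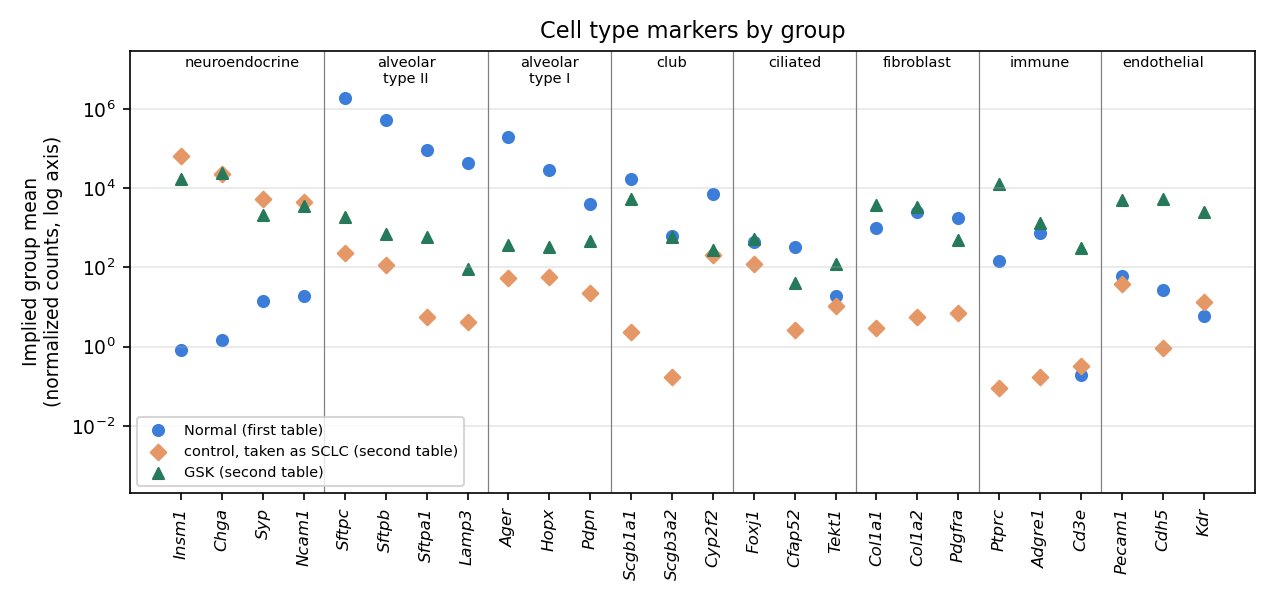
Implied group means (normalized counts, log axis) of 26 cell type markers in Normal (first table) and in the control, taken as SCLC, and GSK (second table); each point is 1 group mean, with no error bar. Ptprc lies at 0.088 in SCLC and 12562 in GSK, and SCLC levels under 1 are too near the floor to rank gaps by size. The GSK points of all 9 fibroblast, immune and endothelial markers lie above those of SCLC.

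Rb1 had an implied level of 165 in SCLC and 960 in GSK. The log2 fold change was 2.54 ± 0.35 (the authors' deposited table gives adjusted p = 9.89e-12), 5.81-fold higher. Lpar6, which overlaps Rb1 on the other strand, rose as well (3.07, adjusted p = 6.07e-05, with a mean of 89.3 over 6 libraries), and Rcbtb2 had 0.05 (the authors' deposited table gives adjusted p = 0.930).

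The relatives of Rb1 did not pass. Rbl1 had an implied 2569 in SCLC and 2610 in GSK, with a log2 fold change of 0.02 ± 0.32 (95% interval -0.61 to 0.66, the authors' deposited table gives adjusted p = 0.968). Rbl2 had 971 and 894, with -0.12 ± 0.39 (95% interval -0.88 to 0.64, the authors' deposited table gives adjusted p = 0.848). Aktip, which shares exon bases with Rbl2, was lower, with -1.14 (the authors' deposited table gives adjusted p = 3.58e-05) and a mean of 1155 over 6 libraries, and its part in the counts of Rbl2 was not tested. The intervals of Rbl1 and Rbl2 leave room for changes of up to about 0.9 in size on the log2 scale.

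The 3 activating E2Fs were lower in GSK. E2f1 went from an implied 11211 to 4095, a log2 fold change of -1.45 ± 0.28 (the authors' deposited table gives adjusted p = 2.73e-06). E2f3 went from 3145 to 1198, with -1.39 ± 0.23 (adjusted p = 3.02e-08), and E2f2 from 13242 to 5869, with -1.17 ± 0.27 (the authors' deposited table gives adjusted p = 0.000124). The 2 atypical E2Fs differed in their calls: E2f8 went from 2142 to 872 (-1.30 ± 0.27, adjusted p = 1.44e-05), while E2f7 had 1519 and 1290 (-0.24 ± 0.28, 95% interval -0.78 to 0.31, adjusted p = 0.547), in the authors' deposited table. Whether these genes differ was not tested.

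Ccne1 showed the greatest fall, from 2449 to 778, with -1.65 ± 0.31 (the authors' deposited table gives adjusted p = 7.24e-07). Cdkn2a went from 11144 to 3653, with -1.61 ± 0.28 (the authors' deposited table gives adjusted p = 7.9e-08). The 6 falls ran from -1.17 to -1.65, and the 5 neuroendocrine markers from -1.95 to 0.06. Tested against a log2 fold change of 1 in size, 0 of these falls passed, while the rise of Rb1 did. When fold changes were centred on the median of these markers, a scaling chosen after seeing the data, 0 of the 10 genes were lower and 4 were higher: Rb1, Rbl1, Rbl2 and E2f7. That centring moves every gene by the same amount, the value of Syp (-1.33), and its calls follow from the marker taken. All 6 falls were called after scaling to total counts and after centring on genes averaging 100 or more. Rb1 was called higher under each of the 7 alternatives tried for this comparison, this one included.

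**Figure D3:**
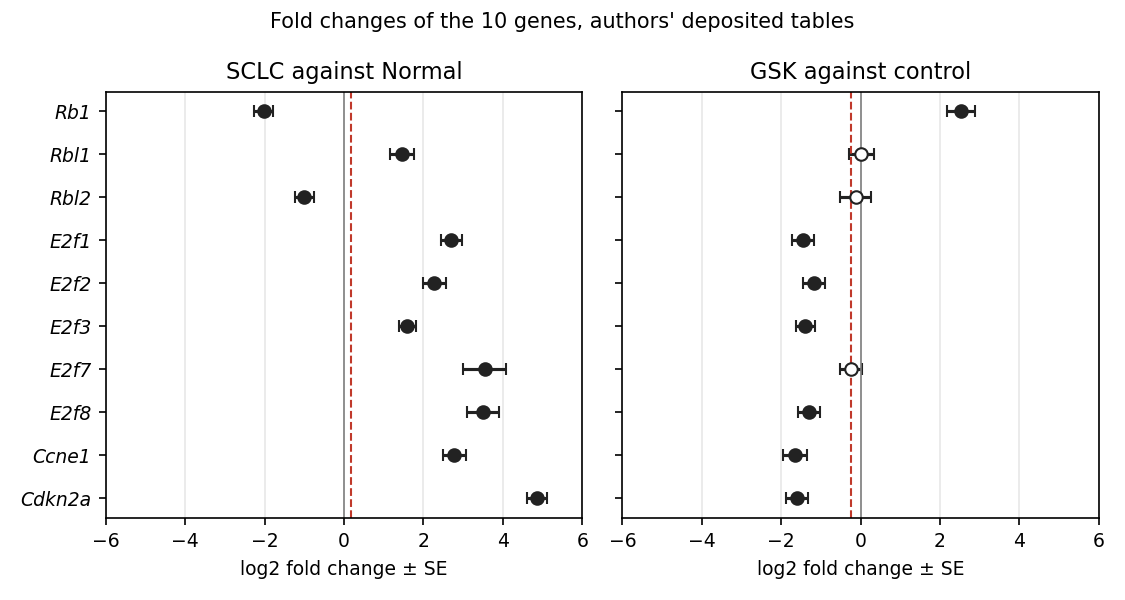
Log2 fold changes of the 10 genes in SCLC against Normal (left) and GSK against SCLC (right), from the authors' deposited tables; bars are the authors' standard errors, filled points have an adjusted p under 0.05, open points do not, and the dashed line is the median of genes averaging 100 or more. Rb1 lies at -2.02 on the left and 2.54 on the right, on the other side of 0 from E2f1 (2.703 and -1.45).

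In the wider pathway, 6 of 64 genes were higher and 29 lower in GSK in the authors' deposited table, beside 21.6% and 15.5% of all tested genes. With fold changes scaled to total counts 8 were higher and 13 lower, and centred on the neuroendocrine markers 32 were higher and 2 lower. Both scalings move every gene by the same amount. The shares of all tested genes above are those of the deposited scaling and cannot be set beside these recounts. The D cyclin Ccnd2 (5.74 ± 0.54, implied level 21.4 in SCLC and 1146 in GSK), its kinase Cdk6 (4.999 ± 0.81, implied level 29.4 and 940) and the p21 gene Cdkn1a (2.15 ± 0.45) were the 3 of the 15 kinases, cyclins and inhibitors that rose, in the authors' deposited table. Like Rb1, all 3 had been lower in SCLC than in Normal, a comparison that shares the SCLC libraries. Of the other genes of this list lower there, Ccnd1 (-0.32 ± 0.73) and Ccnd3 (-0.47 ± 0.41) did not pass in GSK. Cdkn2b was lower again (-0.85 ± 0.32) in the authors' deposited table. Of the 15, those that fell also included the inhibitors Cdkn1c (-3.28 ± 0.40) and Cdkn2c (-1.89 ± 0.39) and the kinase Cdk4 (-1.64 ± 0.29). Ccne2, the cyclin E2 gene, had 0.30 ± 0.40 in the authors' deposited table.

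The G1/S genes gave a mixed result in GSK. Of 20, 8 were lower, 0 higher and 12 did not pass (median log2 fold change -0.46). Among all tested genes 15.5% were lower and 21.6% higher, in the deposited scaling. When scaled to total counts 3 were lower and the median was 0.04. That scaling moves every gene by the same amount, and the share over all genes under it is not given. Tk1, a thymidine kinase, had -1.89 ± 0.38, Mcm5, of the helicase, -1.75 ± 0.24 and Cdt1 -1.58 ± 0.26 in the authors' deposited table. Of the 8 MuvB and partner genes, 4 were lower, with Mybl2 at -1.66 ± 0.29, Lin37 at -1.04 ± 0.27, Rbbp4 at -0.92 ± 0.26 and Foxm1 at -0.89 ± 0.30, and Mybl1 was higher (0.76 ± 0.26), in the authors' deposited table. Scaled to total counts, 1 MuvB gene stayed lower. E2f4 (-1.11 ± 0.24) and Tfdp1 (-0.91 ± 0.26) were lower among the 5 other E2F and DP subunits, in the authors' deposited table.

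Among 8 turnover genes 5 were lower, with Ccnf at -1.90 ± 0.26, Cks1b at -1.63 ± 0.36, Fzr1, an activator of the anaphase-promoting complex, at -1.35 ± 0.27 and Skp2 at -0.99 ± 0.29, in the authors' deposited table. Of 8 chromatin partners 3 were lower and 2 higher, beside 15.5% and 21.6% of all tested genes. The lower ones were Suv39h1 (-1.01 ± 0.26), Sin3b (-0.86 ± 0.28) and Rbbp7 (-0.81 ± 0.32), in the authors' deposited table. Arid4a (1.59 ± 0.30) and Kdm5a (0.53 ± 0.22) were higher there. Scaled to total counts, 0 chromatin partners were lower.

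**Figure D4:**
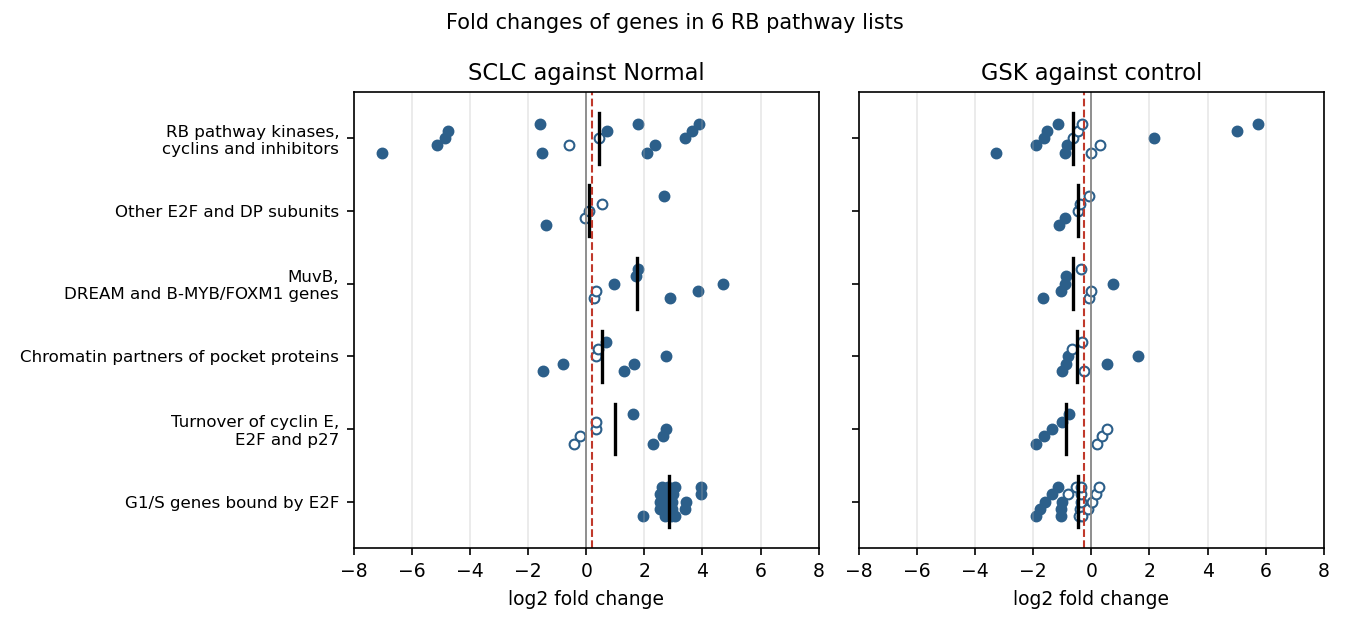
Log2 fold changes of 64 genes in 6 lists around the RB pathway, in SCLC against Normal (left) and GSK against SCLC (right), from the authors' deposited tables; each point is 1 gene, filled where the adjusted p is under 0.05, the black bar is the list median, and the dashed line is the median of genes averaging 100 or more. All 20 G1/S genes lie to the right of 0 on the left panel, and 8 of them are filled and left of 0 on the right panel.

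Across the 3 groups, GSK lay between Normal and SCLC for E2f1, E2f2, E2f3, E2f7, E2f8, Ccne1 and Cdkn2a when the second table was brought to the scale of the first through their shared SCLC means. The tables were normalized separately, so these ratios have no test, and the placing depends on the scaling. E2f7 did not pass against SCLC and had 0.010, 0.27 and 1.09 against it under 3 other scalings, and E2f2 (0.16) and E2f8 (0.033) lay above SCLC when centred on the neuroendocrine markers. On the scale of the first table, set through the shared SCLC means, Cdkn2a in GSK stood at 9.55 times its Normal level. On this same scale E2f7 stood at 9.87 times, E2f8 at 4.64 times, E2f1 at 2.37 times and E2f3 at 1.14 times. Rb1 stood at 1.43 times its Normal level and Rbl2 at 0.457 times.

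Between genes, levels were compared per kb of the longest annotated transcript (GENCODE M21), with no error for a single level. In Normal, E2f1 (582 normalized counts per kb) and E2f2 (535) were close at the top, and swapped places when merged exon length was used. Cdkn2a (396) and Rbl2 (368) came next, and E2f8 (47.2) and E2f7 (22.1) came last. In SCLC, Cdkn2a was highest (11519 per kb), followed by E2f1 (3788), E2f2 (2596) and Ccne1 (1133), and Rb1 was lowest (32.9), 350-fold below Cdkn2a. In GSK, on the scale of the first table, Cdkn2a (3785), E2f1 (1378) and E2f2 (1148) remained the top 3. E2f3 (218), E2f7 (219), E2f8 (219), Rb1 (191) and Rbl2 (168) lay close together there, and their order could not be told apart without library values.

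By the distance between pairs of log2 fold changes, the list genes most like Rb1 were Cdkn1a (-1.60 in SCLC, 2.15 in GSK, distance 0.58) and Arid4a (-1.49 and 1.59, distance 1.09). Those most like E2f1 were Cdkn2d, an INK4 inhibitor gene (2.37 and -1.53, distance 0.34), and Tyms, thymidylate synthase (2.91 and -1.14, distance 0.38). The measure rests on 2 comparisons with shared libraries and is a description.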

How the data were processed

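RNA from the 9 mouse libraries had been aligned with STAR 2.7.9a to GRCm39, per the submitters' processing notes. No label or header names the tools for counting and testing. The files were a pair of comparison tables, and per the file headers they hold the authors' mean normalized count over 6 libraries (a coverage-like signal), the log2 fold change with the standard error that the authors computed, the authors' statistic (a score, the ratio of these), and the authors' p-value and adjusted p-value over all genes kept. A gene was called at the authors' adjusted p under 0.05. Implied group means assume 3 libraries per group. The precision of each value is that of the authors' standard error. Depth per library was not analysed.

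The 10 genes, the 6 pathway lists (64 genes) and the 27 markers were chosen with earlier results of these data known. Values of 1 marker are not reported here. Named pathway genes were up to 3 per list, comparison and direction with the largest change among those called, plus Ccnd1, Cdk4, Cdk6, E2f4, Ccne2, Cdkn1a, Skp2, Mybl2 and Foxm1, and the nearest genes to Rb1 and E2f1. Lpar6, Rcbtb2, Aktip, Gm45464, Gm2788 and 1700020G17Rik were named for their overlap with members. Alternatives were a threshold of 0.01, no filter or a mean of at least 10, a test against a log2 fold change of 1 in size, centring on genes with a mean of at least 100, scaling to total counts, and, added after seeing the data, centring on neuroendocrine markers. Calculations used Python 3.11.15, pandas 2.3.3 and SciPy 1.17.1, tested on simulated data. Transcript lengths and overlaps came from GENCODE M21 (GRCm38) and promoters from RefSeq.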

Additional observations from a re-analysis of the deposited data

How the results depend on the processing

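No paired analysis was possible because the tables hold no library values, so a replicate block could not be fitted; for the same reason no library could be left out. The stricter threshold, the filters on the mean and the test against 1 leave each fold change as deposited. Direction could therefore change only under centring or scaling, and a kept direction elsewhere was fixed in advance. In SCLC against Normal, 58 values of the 10 genes over 6 alternatives kept direction and call and 2 lost the call. In GSK against SCLC 51 kept both, 12 lost the call, 3 gained it (Rbl1, Rbl2 and E2f7, centred on neuroendocrine markers) and 4 changed sign without a call in either setting. The median of the other E2F and DP subunits turned to -0.10 in SCLC when centred on abundant genes. Scaled to total counts in GSK it turned to 0.04, that of the chromatin partners to 0.01 and that of the G1/S genes to 0.04. Against a log2 fold change of 1 in size, members lower in SCLC went to 1 (Rbl2 was lost, and Rbl1 among those higher), pathway genes lower to 4, other E2F and DP subunits lower to 0, and chromatin partners to 1 higher and 0 lower. Centred on abundant genes, 1 turnover gene was lower and E2f4 had -0.10.

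In GSK against SCLC the same test left 0 members lower, 2 pathway genes higher and 3 lower; by list it left 1 kinase, cyclin or inhibitor lower, 0 other E2F and DP subunits lower, 0 MuvB genes higher and 0 lower, 0 chromatin partners higher and 0 lower, 1 turnover gene lower and 1 G1/S gene lower. At a threshold of 0.01, 0 MuvB genes and 1 chromatin partner were higher and 5 G1/S genes lower. Centred on abundant genes, 1 chromatin partner and 5 G1/S genes were lower, 1 turnover gene was higher, and Rbl2 had 0.13 and E2f7 0.010, neither called. Scaled to total counts, 13 pathway genes were lower: 1 other E2F or DP subunit, 1 MuvB gene, 0 chromatin partners, 3 turnover genes and 3 G1/S genes among them. Here 2 turnover genes were higher, and Rbl2 (0.39), E2f7 (0.27), Ccnd1 (0.19), Tfdp2 (0.12) and Hdac2 (0.25) changed sign without a call. Centred on neuroendocrine markers, 4 members were higher and 0 lower, and 32 pathway genes higher and 2 lower; Rbl2 had 1.21, E2f7 1.09, E2f2 0.16 and E2f8 0.033. Centring and scaling move every gene by the same amount, and the shares over all genes under them are not given. The cause of these shifts was not tested. Over these alternatives the adjusted p of Rb1 stayed under 0.05 in both comparisons.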
